A study of Canis lupus familiaris with 2 samples.

Results

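Members of the inorganic ion and metal families of solute carriers were compared between Madin-Darby canine kidney (MDCK) cells under a shallow and a deep layer of culture medium. They were chosen by name: every gene symbol of the families SLC4, SLC8, SLC9, SLC11, SLC12, SLC20, SLC24, SLC26, SLC30, SLC31, SLC34, SLC39, SLC40 and SLC41, which gave 86 of the 23510 features in the files. MDCK is an established line of dog kidney epithelium that grows as a sheet of columnar cells, and the height of the medium sets the static water pressure on the sheet, 2 or 50 cm H2O. Cells were seeded on a semipermeable insert in medium with serum, and each group was 1 culture, labelled as day 3, here called the 2-cm culture (2-cm-high medium) and the 50-cm culture (50-cm-high medium). RNA sequencing gave the FPKM value of each gene, which scales the fragments on a gene to the length of its exons and to the size of the library. With 1 culture per medium height there were no replicates, no difference could be set against replicate error, and no gene was tested.

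Solute carriers are membrane proteins that move small solutes by exchange or cotransport, without the direct use of ATP. In renal tubule cells, the sodium gradient drives the uptake of phosphate and the exit of protons, SLC4 and SLC26 proteins exchange bicarbonate and chloride, and SLC12 proteins carry chloride together with sodium or potassium and so take part in control of cell volume. SLC39 proteins (ZIP) bring zinc and other metals into the cytosol, SLC30 proteins (ZnT) move zinc out of it, and the remaining families carry iron, copper, magnesium or calcium. Of the 86 symbols, 83 name carriers. The other 3 are SLC9A3R1 and SLC9A3R2, the scaffold proteins NHERF1 and NHERF2 that tether apical transporters to the cortex, and SLC4A1AP, an adaptor named after a binding partner.

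The files list FPKM values and no read counts, so the depth is unknown. The ratio between the cultures peaked at 1.0977 among features below 0.1 FPKM, as 1 read in each culture gives, so that a single read counted for 9.77% more in the 50-cm culture. The 2-cm culture had 11394 features above 1 FPKM and the 50-cm culture had 11199. Of the 9 listed markers of simple and renal epithelium, 8 were above 1 FPKM in both cultures, with summed FPKM of 3930 and 3756. The 4 fibroblast markers reached at most 0.247 FPKM, and the blood marker PTPRC was listed at 0 in both. The defining carriers of the thick ascending limb and distal convoluted tubule, SLC12A1 and SLC12A3, were listed at 0 in both cultures, as were UMOD, PVALB and AQP2, which mark the thick ascending limb, the distal convoluted tubule and the principal cell of the collecting duct. The other principal cell markers, AQP3 (3.63 and 2.53 FPKM), SCNN1A (3.02 and 2.02 FPKM) and SCNN1B (1.41 and 0.965 FPKM), were above 0. Of the proximal tubule markers, SLC5A2 had 5.72 and 5.06 FPKM and CUBN 1.74 and 1.89 FPKM, while LRP2 was listed at 0 in both. Of the intercalated cell markers, ATP6V1B1 had 43.5 and 43.1 FPKM, while FOXI1 was listed at 0 in both. A value of 0 does not show that the RNA was absent, since ATP5O, a subunit gene of the mitochondrial ATP synthase, was also listed at 0 in both.

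Most members that could be compared were close to equal in the 2 cultures, as were most features. Of the 86 members, 48 (55.8%, beside 47.0% of all features) exceeded 1 FPKM in the 2 cultures alike. Ratios of 50-cm over 2-cm FPKM were read from these members. Their median log2 ratio was 0.01, the same to this rounding as the median of 0.01 over all 11057 features above 1 FPKM in both cultures, with 26 members higher and 22 lower in the 50-cm culture. SLC11A1 alone was more than 2-fold higher (1 of 48), where 0.389% of all features were, and 0 members were more than 2-fold lower, where 1.28% of all features were. At a margin of 1.5-fold, SLC11A1 remained the 1 higher member (background 2.13%), and 4 members were lower (background 5.06%), namely SLC4A8, SLC9A5, SLC9A2 and SLC24A5. The other 43 lay within 1.5-fold (89.6%, beside 92.8% of all features), and 33 of them within 1.25-fold (68.75% of the 48, beside 76.1% of all features). In these bulk RNA values, fewer cells of a kind and less RNA per cell cannot be told apart.

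**Figure D1:**
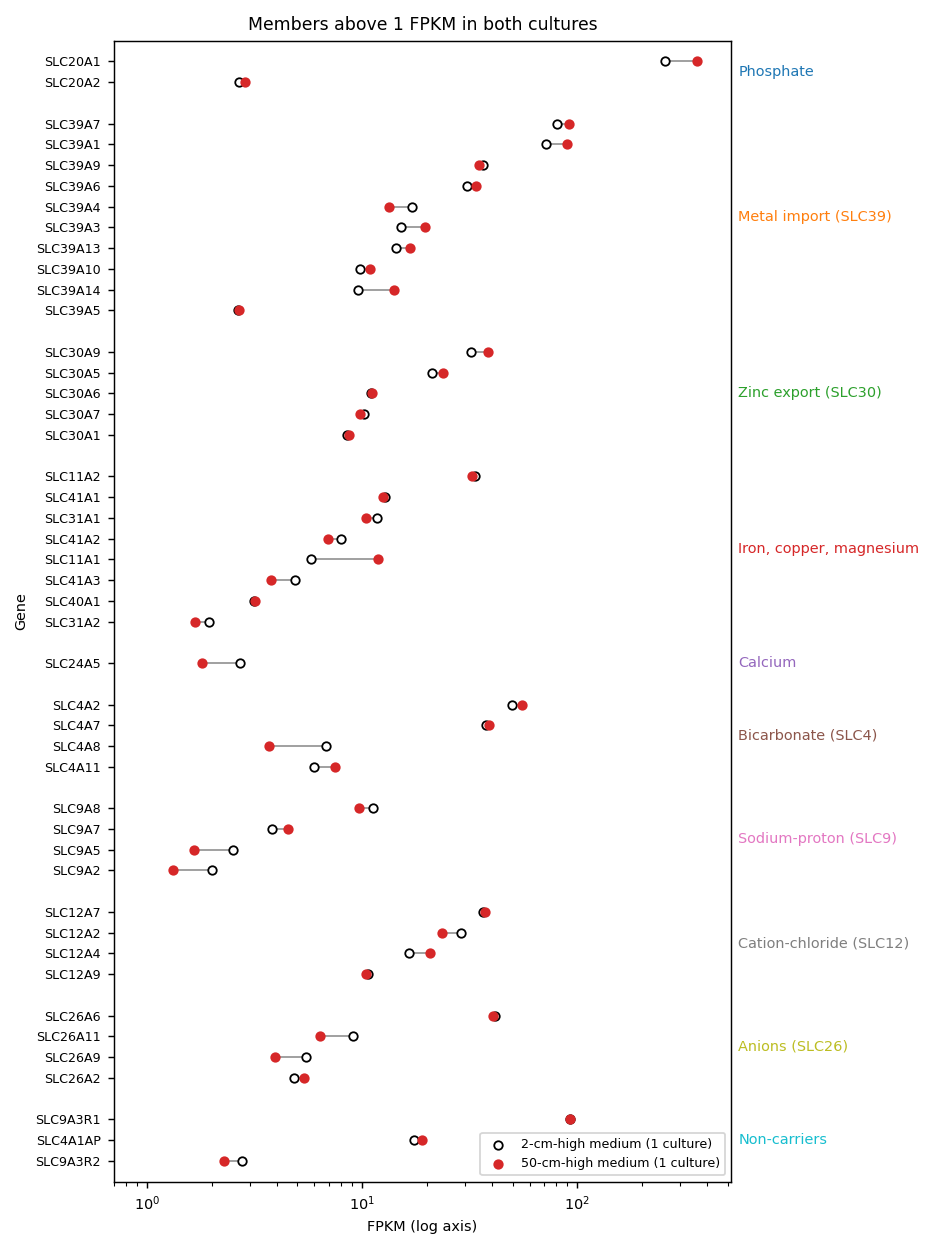
FPKM (log axis) of 45 of the 48 members above 1 FPKM in both cultures, by transported ion, with 1 open circle for the 2-cm culture and 1 red circle for the 50-cm culture; there are no replicates and no error bars. Most pairs of circles lie close together, while SLC20A1 stands highest (255 and 361 FPKM) and SLC11A1 has the largest ratio (5.76 and 11.8 FPKM).

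Weakly expressed features were on the whole lower in the 50-cm culture, and this bears on the 1.5-fold count. Of the 2050 features with a mean FPKM below 5, 14.1% were more than 1.5-fold lower, with a median log2 ratio of -0.14, whereas of the 9007 features at 5 or more, 2.99% were, with a median of 0.03. Among the members, 3 of the 11 with a mean below 5 FPKM were more than 1.5-fold lower (SLC9A2, SLC9A5 and SLC24A5), and 1 of the 37 at 5 or more (SLC4A8). As a yardstick for a single gene, the log2 ratios of the 500 features closest to it in expression were taken, and their scaled median absolute deviation served as the spread, which describes genes and not replicate error. By this yardstick, 19 members lay more than 1 spread from 0, with 9 higher and 10 lower, and 4 lay more than 2 spreads away. These 4 were SLC11A1, SLC20A1 and SLC39A14, all higher in the 50-cm culture, and SLC4A8, which was lower. The share of all features past these limits was not computed, so neither count is read as a result about the members. The spread was taken about the median of the 500 features, whereas the distance was taken from 0.

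**Figure D2:**
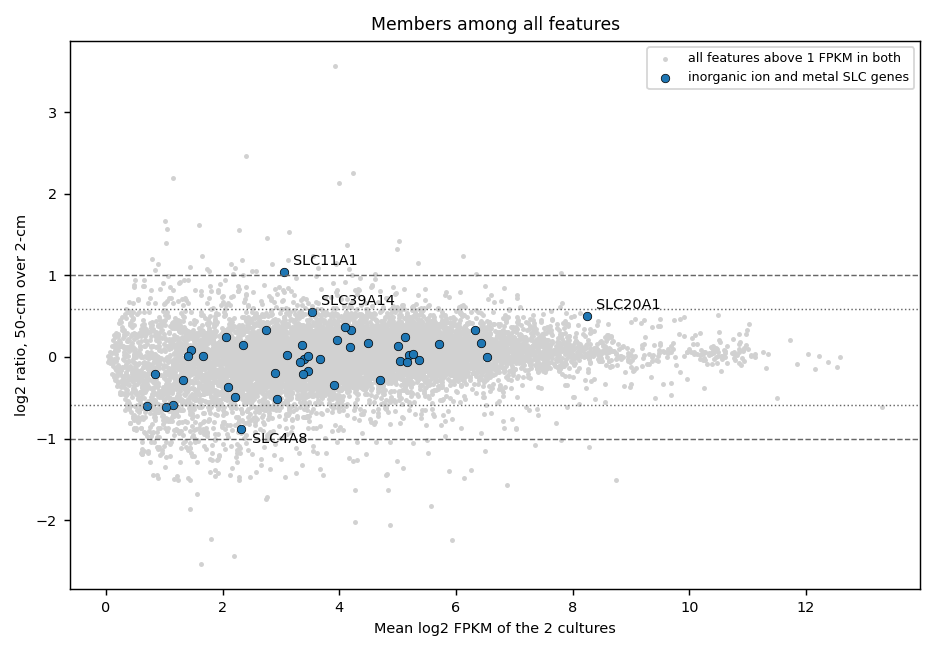
Log2 ratio (50-cm over 2-cm FPKM) against the mean log2 FPKM, with 45 of the 48 members in blue over all 11057 features above 1 FPKM in both cultures in grey; dotted lines mark 1.5-fold and dashed lines 2-fold. The cloud widens toward low FPKM, and SLC11A1 is the only member beyond a dashed line.

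Among the 5 phosphate carriers, SLC20A1 had a far higher FPKM than the rest and a higher value in the 50-cm culture. It encodes PiT1, a sodium-phosphate cotransporter of most cells, and had 255 FPKM in the 2-cm culture and 361 FPKM in the 50-cm culture, a ratio of 1.42 (log2 ratio 0.50, or 3.0 spreads of features of like expression). It had the highest FPKM of all 86 members in both cultures, and its ratio was number 386 from the top among the 11057 features. Its difference of 106 FPKM made up 72.1% of the difference in summed FPKM over the 86 members, which had 1148 FPKM together in the 2-cm culture and 1295 FPKM in the 50-cm culture. Without SLC20A1, the summed FPKM of the other 85 was 893 and 934, a ratio of 1.05, beside 1.02 for the sum over all features. SLC20A2, which encodes the related PiT2, had 2.68 and 2.84 FPKM (ratio 1.06), so the level of SLC20A1 was 94.9 times that of SLC20A2 in the 2-cm culture and 127 times in the 50-cm culture.

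The SLC34 cotransporters, which recover phosphate in the proximal tubule and take it up in gut and lung, were near or at 0. SLC34A1, the main renal carrier, had 0.0657 FPKM in the 2-cm culture and was listed at 0 in the 50-cm culture. SLC34A2 was listed at 0 in both, and SLC34A3 had 0.177 and 0.130 FPKM, a ratio that 3 reads against 2 give. SLC20A1 thus held 98.9% of the summed FPKM of the 5 phosphate carriers in the 2-cm culture and 99.2% in the 50-cm culture. Among the 10 listed genes of phosphate handling, none of the 5 above 1 FPKM in both cultures was past 1.5-fold. All 5 were lower in the 50-cm culture, beside 5236 of all 11057 features. The 5 include XPR1, the phosphate exporter, with 6.83 and 6.56 FPKM, and FGFR3, the lowest in ratio at 0.830. ALPL, the tissue-nonspecific alkaline phosphatase, had 1.28 FPKM in the 2-cm culture and 0.522 FPKM in the 50-cm culture, and so was not counted.

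Zinc and other metals enter the cytosol through the SLC39 proteins, and 10 of the 13 listed members were above 1 FPKM in both cultures. Of these, 8 were higher and 2 lower in the 50-cm culture, none past 1.5-fold, and the median log2 ratio was 0.16, beside 0.01 for all features, of which 52.6% were higher. Their summed FPKM was 289 in the 2-cm culture and 327 in the 50-cm culture (ratio 1.13), a difference that was 26.1% of that over all members. SLC39A7, which releases zinc from the endoplasmic reticulum, had 80.9 and 91.3 FPKM, and SLC39A1, a zinc importer of the plasma membrane, had 71.5 and 89.8 FPKM (ratio 1.26). These were the first and the second of the family in both cultures, and SLC39A9, a zinc transporter of the Golgi, was the third with 36.6 and 34.9 FPKM.

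SLC39A14 (ZIP14), which takes up zinc, manganese and iron not bound to transferrin, had the largest ratio of the family. Its FPKM was 9.57 in the 2-cm culture and 14.0 in the 50-cm culture, a ratio of 1.47 (log2 ratio 0.55, or 2.4 spreads). SLC39A4, the zinc importer known for uptake in the gut, differed the other way, with 17.0 and 13.4 FPKM (ratio 0.787, or -1.6 spreads). The level of SLC39A14 was thus 0.563 times that of SLC39A4 in the 2-cm culture and 1.05 times in the 50-cm culture, and the order of the pair was reversed. SLC39A3, another importer, had 15.1 and 19.5 FPKM (ratio 1.29). SLC39A6 (30.8 and 33.8 FPKM), SLC39A10 (9.82 and 10.8 FPKM) and SLC39A13 (14.4 and 16.7 FPKM) lay at ratios of 1.1 to 1.16, and SLC39A5 was level with 2.64 and 2.67 FPKM. The low members gave little to compare. SLC39A2 had 0.234 and 0.0641 FPKM, and SLC39A8 and SLC39A12 were listed at 0 in both cultures.

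The zinc exporters of the SLC30 family were close to equal in the cultures. Of 10 listed members, 5 were above 1 FPKM in both cultures, 4 of them higher (beside 52.6% of all features) and 1 lower. Their median log2 ratio was 0.03, and none was past 1.25-fold. SLC30A1, the exporter of the plasma membrane, had 8.50 FPKM in the 2-cm culture and 8.67 FPKM in the 50-cm culture (ratio 1.02). SLC30A9, also known as a nuclear coactivator, was the highest of the family with 32.2 and 38.2 FPKM (ratio 1.19). SLC30A5, SLC30A6 and SLC30A7, which load zinc into the secretory pathway, had ratios of 1.12, 1.01 and 0.954. SLC30A3 and SLC30A4, vesicular transporters, stayed at or below 0.433 FPKM in both cultures, at ratios that 3 reads against 2 and 9 reads against 8 give. SLC30A10, the manganese exporter, had 0.0194 FPKM in the 2-cm culture and 0 in the 50-cm culture, and SLC30A2 and SLC30A8 were listed at 0 in both. Beside these, MT2A, a metallothionein that binds zinc and copper, had 178 and 271 FPKM (ratio 1.53), and MTF1, the zinc-sensing transcription factor that drives metallothionein genes, had 4.68 and 5.28 FPKM (ratio 1.13).

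**Figure D3:**
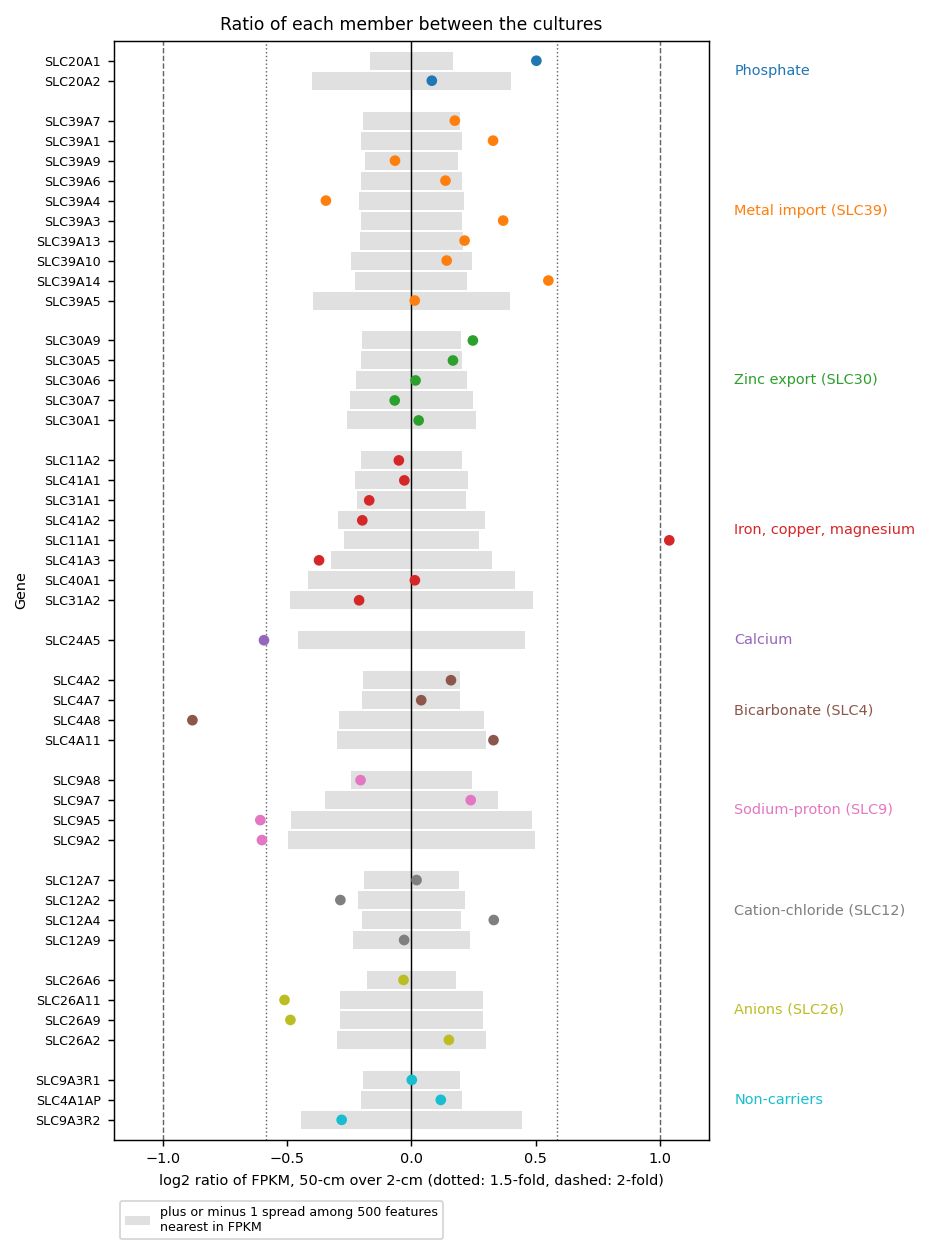
The same 45 members by log2 ratio (50-cm over 2-cm FPKM), coloured by transported ion, over grey bars of plus or minus 1 scaled median absolute deviation of the 500 features closest in expression (a spread over genes, since each culture had no replicate). Of the 10 SLC39 genes, 8 lie right of 0, and SLC11A1 and SLC4A8 lie farthest from 0, at 1.04 and -0.88.

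SLC11A1 was the member with the largest ratio. It encodes NRAMP1, a transporter of iron and manganese best known from the phagosome of macrophages, and had 5.76 FPKM in the 2-cm culture and 11.8 FPKM in the 50-cm culture. The ratio was 2.05 (log2 ratio 1.04, or 3.8 spreads), number 37 from the top among the 11057 features. It was not the ratio of any 2 read numbers up to 10, which does not show how many reads it rested on. The blood marker PTPRC was at 0 in both cultures, which does not show that white blood cells were absent. CD68 and HBB, the other blood markers chosen, had no value under these symbols. The cell source of the SLC11A1 RNA was not tested. The ratio of SLC11A1 is close to the 2-fold limit, and a pseudocount of 1 brought its log2 ratio to 0.92, below that limit. SLC11A2 (DMT1), the relative that carries ferrous iron from the gut lumen and the endosome, was level with 33.4 and 32.3 FPKM (ratio 0.965). The level of SLC11A2 was 5.80 times that of SLC11A1 in the 2-cm culture and 2.73 times in the 50-cm culture.

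SLC40A1 encodes ferroportin, the only known iron exporter, and had 3.14 FPKM in the 2-cm culture and 3.17 FPKM in the 50-cm culture (ratio 1.01). The ferroxidases that work with it were lower in the 50-cm culture. HEPH (hephaestin) had 12.4 and 6.53 FPKM (ratio 0.528, or -3.9 spreads), and CP (ceruloplasmin) had 59.5 and 33.5 FPKM (ratio 0.563, or -4.6 spreads). On the side of uptake and storage, TFRC, the transferrin receptor, had 76.0 and 101 FPKM (ratio 1.33), FTH1, the ferritin heavy chain, had 119 and 168 FPKM (ratio 1.41), and FTL, the light chain, had 2570 and 2631 FPKM (ratio 1.02). HFE, STEAP3 and NCOA4, other iron genes listed, were lower, at ratios of 0.711, 0.913 and 0.899. STEAP2, a metalloreductase, had 2.87 and 4.97 FPKM (ratio 1.73) and was the only gene of this list more than 1.5-fold higher. Of the 15 listed iron genes above 1 FPKM in both cultures, 1 was thus more than 1.5-fold higher (background 2.13%) and 2 lower (background 5.06%). Of the 15, 8 were higher, beside 52.6% of all features, and 7 were lower, and their median log2 ratio was 0.03.

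The copper and magnesium carriers were all somewhat lower in the 50-cm culture, within 1.3-fold, where 5236 of all 11057 features were lower. SLC31A1 (CTR1), the copper importer of the plasma membrane, had 11.8 and 10.4 FPKM (ratio 0.889), and SLC31A2, its relative, had 1.94 and 1.67 FPKM (ratio 0.864). The magnesium carriers were SLC41A1 with 12.8 and 12.5 FPKM (ratio 0.980), SLC41A2 with 8.0 and 6.97 FPKM (ratio 0.872), and SLC41A3 with 4.88 and 3.77 FPKM (ratio 0.773). All 5 lay within 1.2 spreads of 0. None of the 9 copper genes of the partner list was past 1.5-fold, and CCS, the copper chaperone of superoxide dismutase, had the lowest ratio at 0.792. Of the 10 magnesium genes compared, CNNM2, a magnesium regulator of the distal tubule, had 2.02 and 1.26 FPKM (ratio 0.625), and EGF, a hormone of renal magnesium handling, had 33.6 and 22.3 FPKM (ratio 0.665). The other 8 lay within 1.5-fold, and 5.06% of all features were more than 1.5-fold lower.

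**Figure D4:**
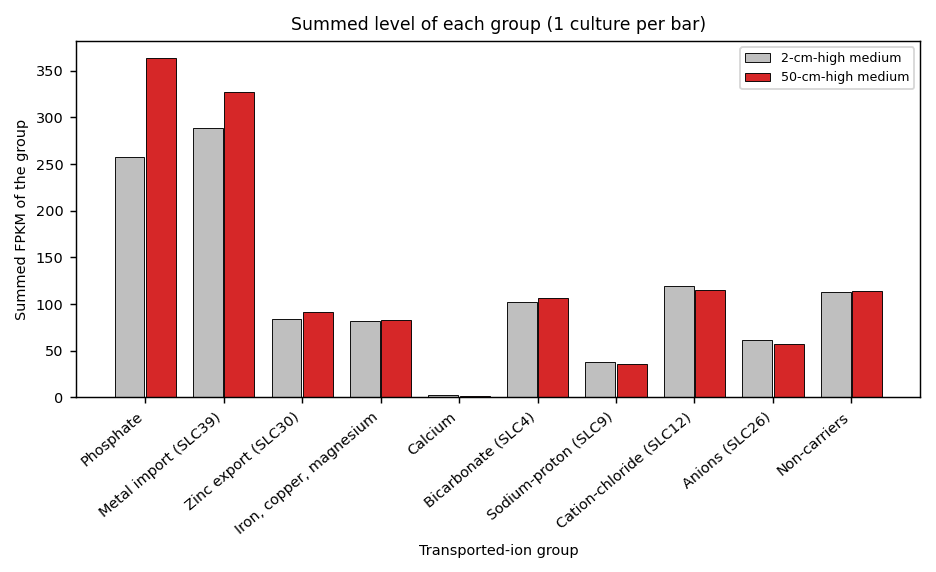
Summed FPKM of the listed members of each transported-ion group, with a grey bar for the 2-cm culture and a red bar for the 50-cm culture; each bar is 1 culture and has no error. The phosphate bars differ most (258 and 364 FPKM), followed by those for SLC39 (289 and 327 FPKM), and the calcium bars are near 0 (2.81 and 1.82 FPKM).

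No SLC8 gene had an FPKM value above 1. SLC8A1, the widespread sodium-calcium exchanger NCX1, was listed at 0 in both cultures, and SLC8A2 and SLC8A3, known from brain and muscle, had at most 0.0294 FPKM. Of the SLC24 family, whose members also exchange potassium, only SLC24A5, the exchanger of the melanosome, was above 1 FPKM. It had 2.71 FPKM in the 2-cm culture and 1.80 FPKM in the 50-cm culture (ratio 0.662, or -1.3 spreads). SLC24A2 had 0.0555 and 0.00676 FPKM, and SLC24A1, SLC24A3 and SLC24A4 were listed at 0 in both. The calcium pumps were present, among them ATP2B1 of the plasma membrane with 15.9 and 15.5 FPKM (ratio 0.976) and ATP2A2 of the endoplasmic reticulum with 48.8 and 64.6 FPKM (ratio 1.32). ATP2A1, the pump of fast muscle, was the 1 gene of the 6 compared that passed 1.5-fold, with 1.94 and 1.05 FPKM (ratio 0.540, background 5.06% lower). The tubular calcium genes CALB1, TRPV5 and TRPV6 were listed at 0 in both.

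SLC4A2 and SLC4A7 had the highest FPKM of the SLC4 family. SLC4A2 (AE2), the basolateral chloride-bicarbonate exchanger, had 49.6 FPKM in the 2-cm culture and 55.3 FPKM in the 50-cm culture (ratio 1.12), and SLC4A7 (NBCn1), which brings in bicarbonate with sodium, had 37.7 and 38.8 FPKM (ratio 1.03). SLC4A8 (NDCBE), a sodium-driven chloride-bicarbonate exchanger that extrudes acid, had the lowest ratio of the 48 members. Its values were 6.78 FPKM in the 2-cm culture and 3.68 FPKM in the 50-cm culture, a ratio of 0.542 (log2 ratio -0.88, or -3.0 spreads), number 210 from the bottom among the 11057 features. This ratio was not that of any 2 read numbers up to 10, which leaves the number of reads behind it unknown. SLC4A11, a member that conducts protons or ammonia and not bicarbonate, had 5.95 and 7.48 FPKM (ratio 1.26) and so passed SLC4A8 in level.

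The other members of SLC4 were at most 1 FPKM in at least 1 culture. SLC4A3, the exchanger of heart and brain, had 1.33 and 0.899 FPKM and was the only one of the 86 above 1 FPKM in just 1 culture. SLC4A1, the exchanger of red cells and of the alpha-intercalated cell, was listed at 0 in both cultures. SLC4A4 (NBCe1), the carrier of proximal tubule bicarbonate, had 0.00895 and 0.0197 FPKM, a ratio that 1 read against 2 gives. SLC4A5 (0.131 and 0.0719 FPKM), SLC4A9 (0.214 and 0.165 FPKM) and SLC4A10 (0.0123 FPKM and 0) were no higher in the 50-cm culture.

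Carbonic anhydrases make the bicarbonate that these proteins carry, and all 5 above 1 FPKM in both cultures were lower in the 50-cm culture, with a median log2 ratio of -0.36. Over all 11057 features, 5236 were lower, and 2 of the 5 were more than 1.5-fold lower beside 5.06% of all features. CA14, a membrane-bound enzyme, had 42.0 and 20.5 FPKM (ratio 0.488, or -4.9 spreads) and was the only partner gene past 2-fold among those above 1 FPKM in both cultures. CA4, anchored to the apical membrane, had 4.73 and 3.05 FPKM (ratio 0.644), and the cytosolic CA2, the most abundant, had 576 and 448 FPKM (ratio 0.777). CA12 and CA13 had ratios of 0.830 and 0.908. CA9 was not counted, with 1.15 FPKM in the 2-cm culture and 0.659 FPKM in the 50-cm culture.

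Among the 9 sodium-proton exchangers, 6 were above 1 FPKM in both cultures, 2 of them higher and 4 lower in the 50-cm culture. Of all 11057 features, 5236 were lower. The median log2 ratio of the 6 was -0.10. This median was -0.21 with no FPKM minimum and close to 0 with a minimum of 5 FPKM. SLC9A7 of the trans-Golgi network had 3.81 and 4.50 FPKM (ratio 1.18), and SLC9A8, found in the Golgi and at the apical membrane, had 11.2 and 9.71 FPKM (ratio 0.867). SLC9A2 (NHE2), an apical exchanger, had 2.01 and 1.32 FPKM (ratio 0.659, or -1.2 spreads), a ratio that 5 reads against 3, or a multiple of them, give. SLC9A5 (NHE5), best known from neurons, had 2.52 and 1.65 FPKM (ratio 0.656, or -1.3 spreads). SLC9A3 (NHE3), the apical exchanger of the proximal tubule, was listed at 0 in both, and SLC9A4 and SLC9A9 had at most 0.0531 FPKM. In the dog gene table of RefSeq (assembly UU_Cfam_GSD_1.0), where 84 of the 86 symbols were found, SLC9A2 and SLC9A4 were the only members that were next to each other.

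Of the scaffolds, SLC9A3R1 (NHERF1) was the second highest of the 86 members and was level, with 92.3 FPKM in each culture. SLC9A3R2 (NHERF2) had 2.76 and 2.27 FPKM (ratio 0.823), and the adaptor SLC4A1AP had 17.5 and 18.9 FPKM (ratio 1.09). EZR (ezrin), which links NHERF1 to actin, had 261 and 332 FPKM (ratio 1.27), and its relatives RDX and MSN had ratios of 1.1 and 1.13. CHP1, the calcium-binding subunit of the exchangers, had 49.0 and 44.6 FPKM (ratio 0.910). None of the 5 partners compared passed 1.5-fold.

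Of the cation-chloride cotransporters, 5 of 9 were above 1 FPKM in both cultures, and all 5 lay within 1.3-fold. SLC12A2 (NKCC1), which loads chloride and potassium with sodium, had 28.7 FPKM in the 2-cm culture and 23.6 FPKM in the 50-cm culture (ratio 0.82, or -1.3 spreads). Potassium-chloride cotransporters let these ions out of the cell. SLC12A7 (KCC4) had 36.5 and 37.1 FPKM (ratio 1.01), and SLC12A4 (KCC1) had 16.5 and 20.7 FPKM (ratio 1.26, or 1.7 spreads). The level of SLC12A7 was 1.27 times that of SLC12A2 in the 2-cm culture and 1.57 times in the 50-cm culture, and the order of the 5 genes was the same in both. SLC12A9, a distant member, had 10.7 and 10.5 FPKM. SLC12A5 and SLC12A8 stayed at or below 0.350 FPKM, each at the ratio of 2 reads against 1.

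The kinases that switch these cotransporters were listed together with genes that are not kinases (CAB39, CAB39L, KLHL3, CUL3 and NEDD4L). Of the 11 genes of this list compared, 10 lay within 1.5-fold, beside 92.8% of all features. WNK4, which regulates the thiazide-sensitive cotransporter, had 4.29 and 2.34 FPKM (ratio 0.545, or -2.1 spreads), while WNK1 had 22.7 and 24.9 FPKM (ratio 1.09). STK39 (SPAK) had 14.8 and 11.1 FPKM (ratio 0.75), and OXSR1 (OSR1), the related kinase, had 53.3 and 54.3 FPKM (ratio 1.02). SGK1, a kinase induced by aldosterone and by cell shrinkage, had 77.9 and 79.4 FPKM (ratio 1.02).

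The SLC26 anion exchangers were led by SLC26A6 (PAT1), an apical exchanger of chloride, bicarbonate and oxalate, with 41.7 FPKM in the 2-cm culture and 40.7 FPKM in the 50-cm culture (ratio 0.978). Lower ratios were found for SLC26A11, a sulfate and chloride carrier of lysosome and plasma membrane, with 9.10 and 6.39 FPKM (ratio 0.701, or -1.8 spreads), and for SLC26A9, a chloride channel of airway and stomach, with 5.50 and 3.92 FPKM (ratio 0.713, or -1.7 spreads). SLC26A2, the sulfate transporter that serves proteoglycan synthesis, had 4.84 and 5.38 FPKM (ratio 1.11). The median log2 ratio of these 4 genes was -0.26, and it was -0.03 with a minimum of 0.1 FPKM and -0.11 with no minimum. SLC26A1 had 0.413 and 0.628 FPKM, and SLC26A4 (pendrin), the apical exchanger of the non-alpha intercalated cell, had 0.0782 and 0.0687 FPKM, a ratio that 5 reads against 4 give. SLC26A3, SLC26A5, SLC26A7, SLC26A8 and SLC26A10 were listed at 0 in both. Of the 8 chloride channel genes compared, 7 were lower in the 50-cm culture, beside 5236 of all 11057 features. None was past 1.5-fold, and CLCN4 had the lowest ratio at 0.710.

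**Figure D5:**
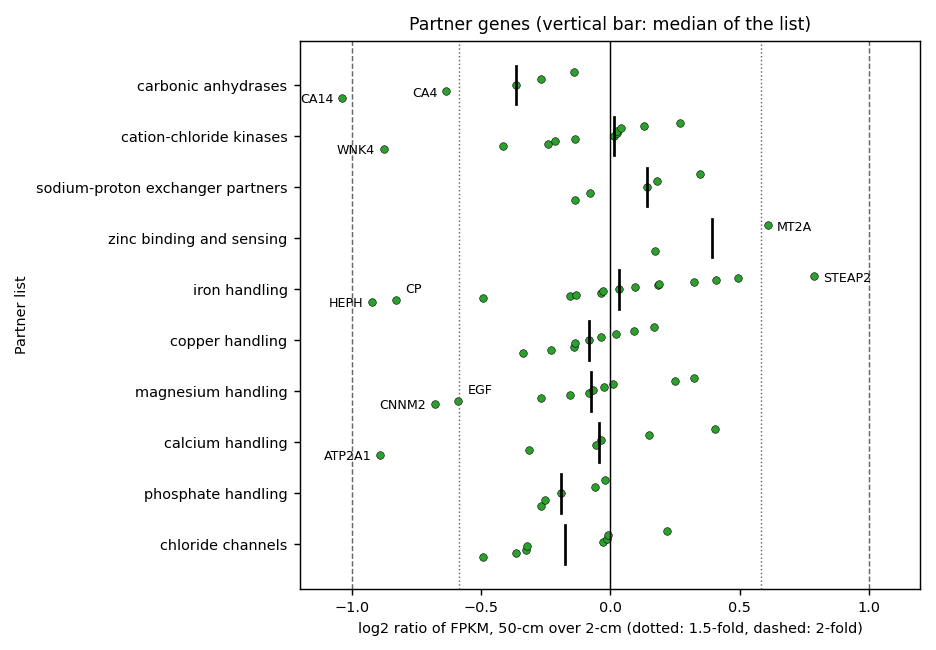
Log2 ratio (50-cm over 2-cm FPKM) of the partner genes above 1 FPKM in both cultures, by list, with each dot 1 gene, a vertical bar at the median of the list and the genes past 1.5-fold named; there are no replicates. Of the genes plotted, CA14 is the only one past 2-fold (dashed line), at -1.04, and MT2A and STEAP2 are the only ones more than 1.5-fold higher.

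The members below the limit of 1 FPKM were read only as levels. Of the 86, 18 (20.9%) were listed at 0 in both cultures, beside 32.9% of all features, and 5 (SLC4A10, SLC8A3, SLC9A9, SLC30A10 and SLC34A1) had between 0.0123 and 0.0657 FPKM in the 2-cm culture and 0 in the 50-cm culture. None was at 0 in the 2-cm culture alone. A further 14 were above 0 and at most 0.628 FPKM in both cultures, 12 of them lower in the 50-cm culture, and 10 of the 14 lay within 0.05% of the ratio of 2 read numbers up to 10. SLC4A5, SLC9A4, SLC12A5 and SLC12A8 shared the ratio of 0.549, that of 2 reads against 1. At 2 reads against 1, a single read sets the ratio, and no difference was read from these members. The shares of all features at this level that were lower, or at 0 in 1 culture only, were not computed. The counts are therefore not read as a result about the members.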

How the data were processed

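Stranded mRNA libraries from 1 MDCK culture per medium height were sequenced by the authors as 75-base single-end reads. TopHat 2.0.13 mapped the reads to CanFam3.1, helped by SAMtools 0.1.19 and Bowtie 2 2.2.3, and Cuffnorm 2.2.1 produced the deposited FPKM values. Its scaling method and the annotation of genes are not given in the sources used here. FPKM depends on the exon length assigned to a gene, and how reads shared by related genes were divided is not given either. Members were found by symbol. The 50-cm value was divided by the 2-cm value, with no pseudocount, where each exceeded 1 FPKM, and ratios were counted past 2-fold (ratio above 2 or below 0.5) and past 1.5-fold, with no test and no p-value. The members, the 10 partner lists (112 genes found) and the cell type markers were chosen with earlier results of these data known. Genes named are every member past 1.5-fold, the highest of each family, well-known renal members, and partner genes past 1.5-fold or at the extreme of their list, and the remaining members and some partner genes were added for context. A ratio was assigned to few reads when it lay within 0.05% of the ratio of 2 read numbers up to 10, and multiples of these reads give the same ratio. The 8 alternatives were other FPKM minimums, pseudocounts of 0.1 and 1, recentring on the median and quantile normalization. The scripts, in Python 3.11.15 with numpy 2.4.6, pandas 2.3.3 and matplotlib 3.10.9, were tested on simulated data. No sequence was used here, and the RefSeq table served only for names and for which members neighbour each other. Values of 3 members are not reported here, though they stay in the counts, sums and medians.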

Additional observations from a re-analysis of the deposited data

How the results depend on the processing

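No paired analysis was possible because each group has 1 sample. With no FPKM minimum, 2 members were more than 2-fold higher and 2 lower, and 3 were more than 1.5-fold higher and 11 lower, since members of few reads then entered. A minimum of 0.1 FPKM gave 2 of 55 members more than 1.5-fold higher, beside 4.47% of all features. A minimum of 5 FPKM left 0 of 35 members more than 1.5-fold lower, beside 2.25% of all features. This was because SLC4A8 and the other 3 lie under that minimum in at least one culture. With a pseudocount of 1, 0 of 48 members were more than 2-fold higher, beside 0.217% of all features. With a pseudocount of 0.1, a pseudocount of 1 or quantile normalization, 1 of 48 was more than 1.5-fold lower. The shares of all features were then 4.74%, 3.15% and 3.86%. The median log2 ratio of the members moved by less than 0.1 under all 8 alternatives, as did all but 13 of the 79 values of the group medians. For the 41 genes followed, each of the 316 values stayed within 1 spread of features of like expression. Much of this was fixed in advance, because a changed FPKM minimum cannot alter the ratio of a single gene and recentring shifts every ratio alike. Only the pseudocounts and quantile normalization could move genes differently. The unknown number of reads and the single culture per height limit every ratio.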
